A study of Mus musculus with 15 samples.

Results

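The Ly6 genes examined here are the mouse genes Ly6a, Ly6c1, Ly6c2, Ly6d, Ly6e, Ly6f, Ly6g, Ly6h, Ly6i and Ly6k. They were taken by gene name, with no threshold on a value, and are 10 of the 37008 gene names on the array, read by 15 of its 56605 probes. The family as a whole was selected on its log2 levels in the 5 sample groups, which were in view when it was proposed, so its levels, differences and adjusted p-values are given as a description of these arrays and are not independent evidence.

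The 15 samples, in 5 groups of 3, were each read on an Agilent mouse array with 1 colour. Pancreatic stellate cells (PSC), the fibroblast-like cells of the pancreas, came from heterozygous mice (PSC HT) or from wild type mice (PSC WT), and both were grown for 2 weeks until activated. Pancreatic cancer cells, labelled neoplastic cells, spent 24 h in medium conditioned by HT PSC, in medium conditioned by WT PSC, or in control medium. The heterozygous locus, the cancer cell line, the age of the mice and any separate animals or cultures behind the replicates are not given in the labels, so a p-value here reflects how far the samples of a group scatter, which could be technical scatter alone.

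Ly6 proteins are small cell surface proteins with a three-fingered fold, the Ly6/uPAR domain, and most are held in the membrane by a glycosylphosphatidylinositol (GPI) anchor. Several mark blood cell types in the mouse: Ly6a is Sca-1, the stem cell antigen that also marks some fibroblasts and tumour cells, Ly6c1 and Ly6c2 encode the Ly6C antigens of monocytes and endothelium, and Ly6g encodes the neutrophil antigen Ly6G. Ly6a, Ly6c and Ly6e are known as interferon-inducible genes in several cell types, and Ly6e also alters the entry of viruses.

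All 10 members lie on chromosome 15. By the probe coordinates in the files (build mm9), they run in the order Ly6d, Ly6k, Ly6e, Ly6i, Ly6a, Ly6c1, Ly6c2, Ly6g, Ly6f and Ly6h over 802.7 kb. The probe of Ly6a covers chr15:74825553-74825612 on the minus strand, and that of Ly6g chr15:74989023-74989082 on the plus strand. Ly6c1 and Ly6c2 lie between them at chr15:74875495-74875554 and chr15:74938637-74938695, both on the minus strand.

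Because the members are close relatives, the probe sequences set how far their signals can be told apart. The brighter Ly6c1 probe and the Ly6c2 probe differ at only 3 of 60 positions. Counted from 1 at the 5′ end of the probe, and with the Ly6c1 base first, these are G8C, A57G and C60T. The last 30 bases of each are shown because they hold 2 of the 3 differences, which stand in capitals.
Ly6c1 probe, bases 31 to 60: tctggggtcctgcagggttcccatgtAtgC
Ly6c2 probe, bases 31 to 60: tctggggtcctgcagggttcccatgtGtgT
A signal from either probe may therefore hold RNA of both genes, and the values below are given as those of the probe. A second, dimmer Ly6c1 probe is not one of this near-identical pair and begins as follows.
Ly6c1 dimmer probe, bases 1 to 30: agcagttacctgccgcgcctctgatggatt

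The Ly6g probe has its own near match, a probe for an Ensembl transcript that the tables used here do not name. The stretch they share is shown with the single differing base in capitals.
Ly6g probe, bases 31 to 60: tActgttgcaaggaagacctctgcaatgca
Unnamed transcript probe, bases 19 to 48: tCctgttgcaaggaagacctctgcaatgca
Over their best alignment, 38 of 42 bases were identical, so these probes too may share RNA. Every other pair of member probes differed by 28 or more edits.

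RefSeq promoter sequence (GRCm38.p6, the 250 bases before an annotated start) was at hand for 4 members, Ly6c1, Ly6c2, Ly6g and Ly6f. Short stretches are shown because those of Ly6c1, Ly6g and Ly6f are alike and that of Ly6c2 is less so. They begin 153 (Ly6c1), 109 (Ly6g), 179 (Ly6f) and 196 (Ly6c2) bases before an annotated start. Capitals mark a match to TATAAA, the TATA box sequence, and whether it acts as a core promoter box at these distances was not tested.
Ly6c1: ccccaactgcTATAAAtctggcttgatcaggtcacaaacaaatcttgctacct
Ly6g: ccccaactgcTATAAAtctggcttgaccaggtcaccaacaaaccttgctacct
Ly6f: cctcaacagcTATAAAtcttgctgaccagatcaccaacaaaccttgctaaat
Ly6c2: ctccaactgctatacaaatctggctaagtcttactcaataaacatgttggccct
The stretches are at chr15:75048938-75048990 (minus strand) for Ly6c1, chr15:75155152-75155204 (plus strand) for Ly6g, chr15:75268242-75268293 (plus strand) for Ly6f and chr15:75112080-75112133 (minus strand) for Ly6c2. Ly6c1 and Ly6g differed by 3 edits and Ly6g and Ly6f by 7, while the stretch of Ly6c2 was 18 edits from that of Ly6c1. The nearest match to the Ly6c1 stretch among 32835 promoters of genes outside the Ly6 names was 17 edits away. TATAAA occurred in the 250 bases before a start of Ly6c1, Ly6g and Ly6f, and in 12.4% of all 32851 promoters of that length. On both strands of the same windows, TTTCNNTTT, the core of the interferon-stimulated response element, and TTCNNNGAA, the gamma-activated site, were found in 0 of the 7 promoters of members, against 9.37% and 7.02% of all promoters. These 7 windows come from 4 members, those of the same gene overlap, and Ly6a and Ly6e have none. With so few windows and such shares, no lack of these sites is read from the 0.

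Values below are log2 signals relative to the 75th percentile of the array, and differences are log2 differences ± SE from limma, fitted over all genes tested, with 3 arrays per group. A probe's level is compared between samples and not with another probe. Across the arrays, 0 spots were saturated and 54.3% to 63.8% were well above background, on arrays of 2 slides. All 10 activated stellate cell markers were well above background on the 6 PSC arrays, and all 12 epithelial markers on the 9 cancer cell arrays. The array of PSC HT 3 stood apart in its summed level of these epithelial markers, in units of the array's 75th percentile: 23.5, against 6.50 and 7.20 in the other PSC HT arrays and 13.9 to 14.8 in PSC WT. Of the members, 9 were well above background on every array of at least 1 group and 6 on all 15 arrays. Ly6d, which marks early B-lineage cells and squamous epithelium, was well above background on no array. The same held for the dimmer Ly6k probe and for every Ly6h probe but the brightest, 5 of the 15 probes in all. By the coordinates, the dimmer Ly6k probe lies on the plus strand and the brighter one on the minus strand. The dimmer one may therefore read another transcript and is not taken as a second reading of Ly6k. The Ly6h and Ly6k values below therefore rest on the brightest probe of each.

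The main comparison asks how the cancer cells changed in medium conditioned by PSC. Ly6a, Ly6c1, Ly6c2 and Ly6g were each more than doubled in both PSC media, at 2.50 to 2.76 times the control in HT PSC medium and 2.35 to 2.65 times in WT PSC medium. Ly6f stood at 2.12 times the control in HT PSC medium and 2.42 times in WT PSC medium, and Ly6e at 1.39 and 1.36 times. Ly6i and Ly6h did not pass the test, and Ly6k and Ly6d were too dim in the cancer cells to be tested.

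Ly6a, which encodes Sca-1, read 3.05, 2.70 and 2.95 in HT PSC medium and 2.88, 2.68 and 2.87 in WT PSC medium, against 1.55, 1.53 and 1.66 in control medium. All 6 arrays in PSC medium were above all 3 controls, and the arrays of both PSC media overlapped. The difference from control was 1.32 ± 0.10 for HT PSC medium (adjusted p = 0.000492) and 1.23 ± 0.10 for WT PSC medium (adjusted p = 0.000429). These differences share the 3 control arrays.

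The brighter Ly6c1 probe gave 3.90, 3.52 and 3.77 in HT PSC medium and 3.67, 3.52 and 3.69 in WT PSC medium, against 2.32, 2.41 and 2.43 in control medium. The Ly6c2 probe gave 3.75, 3.45 and 3.67 in HT PSC medium and 3.56, 3.37 and 3.54 in WT PSC medium, against 2.19, 2.26 and 2.30 in control medium. Neither probe had an array in PSC medium within the range of the controls. The Ly6c1 difference was 1.34 ± 0.10 in HT PSC medium and 1.24 ± 0.10 in WT PSC medium, and that of Ly6c2 was 1.37 ± 0.09 and 1.24 ± 0.09.

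The dimmer Ly6c1 probe gave -0.60, -0.97 and -0.56 in HT PSC medium and -0.66, -0.78 and -0.64 in WT PSC medium, against -2.45, -2.38 and -2.39 in control medium. Its differences, 1.70 ± 0.11 and 1.72 ± 0.11, were larger than those of the brighter probe. The direction of the change in the cancer cells was the same at both Ly6c1 probes. Probes were compared only with probes, so whether Ly6c2 RNA also binds the dimmer one was not examined.

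Ly6g gave -0.72, -0.97 and -0.91 in HT PSC medium and -1.06, -0.92 and -0.79 in WT PSC medium, against -2.74, -2.15 and -2.10 in control medium. The PSC media were again clear of the controls, with differences of 1.47 ± 0.17 and 1.41 ± 0.17. The unnamed transcript with the shared sequence averaged -1.57 ± 0.17 in HT PSC medium and -1.58 ± 0.08 in WT PSC medium, against -2.89 ± 0.20 in control medium (SD, n = 3 each).

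Ly6f gave -3.52, -2.96 and -3.55 in HT PSC medium and -3.43, -3.05 and -3.00 in WT PSC medium, against -4.67, -3.88 and -4.75 in control medium. Control 2 stood above the other controls but below every array in PSC medium. The differences were 1.09 ± 0.26 (adjusted p = 0.0477) in HT PSC medium and 1.27 ± 0.26 (adjusted p = 0.0234) in WT PSC medium. The processed signals behind them were 106.8 to 163.9 and 119.1 to 161.2 units in PSC media, against 49.0 to 79.4 in control medium, so background correction weighs on this gene. With normexp correction the differences shrank to 0.49 (adjusted p = 0.144) and 0.67 (adjusted p = 0.0471), and the call was lost without any one of 5 of the 6 arrays compared for HT PSC medium, and of 4 of the 6 for WT PSC medium.

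Ly6e changed least among the members that passed. It gave 5.42, 5.21 and 5.29 in HT PSC medium and 5.35, 5.14 and 5.33 in WT PSC medium, against 4.85, 4.84 and 4.79 in control medium. The differences were 0.48 ± 0.08 (adjusted p = 0.0138) and 0.45 ± 0.08 (adjusted p = 0.0153). The calls were lost without array 1 in HT PSC medium (adjusted p = 0.0529) and without array 1 or 3 in WT PSC medium (adjusted p = 0.0625 and 0.0720).

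Ly6i, a close relative of Ly6a in the mouse, was decided by 1 array. It gave -4.37, -4.30 and -5.28 in HT PSC medium and -5.01, -4.09 and -4.54 in WT PSC medium, against -4.68, -2.30 and -4.84 in control medium. The fitted differences were -0.71 ± 0.64 (adjusted p = 0.611) and -0.61 ± 0.64 (adjusted p = 0.635). Without control 2 they were 0.11 and 0.21. Ly6h, known in the mouse mainly from brain, where it modulates nicotinic receptors, gave -0.04 ± 0.12 in HT PSC medium and 0.01 ± 0.12 in WT PSC medium, with 95% intervals of -0.32 to 0.24 and -0.27 to 0.29.

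**Figure D1:**
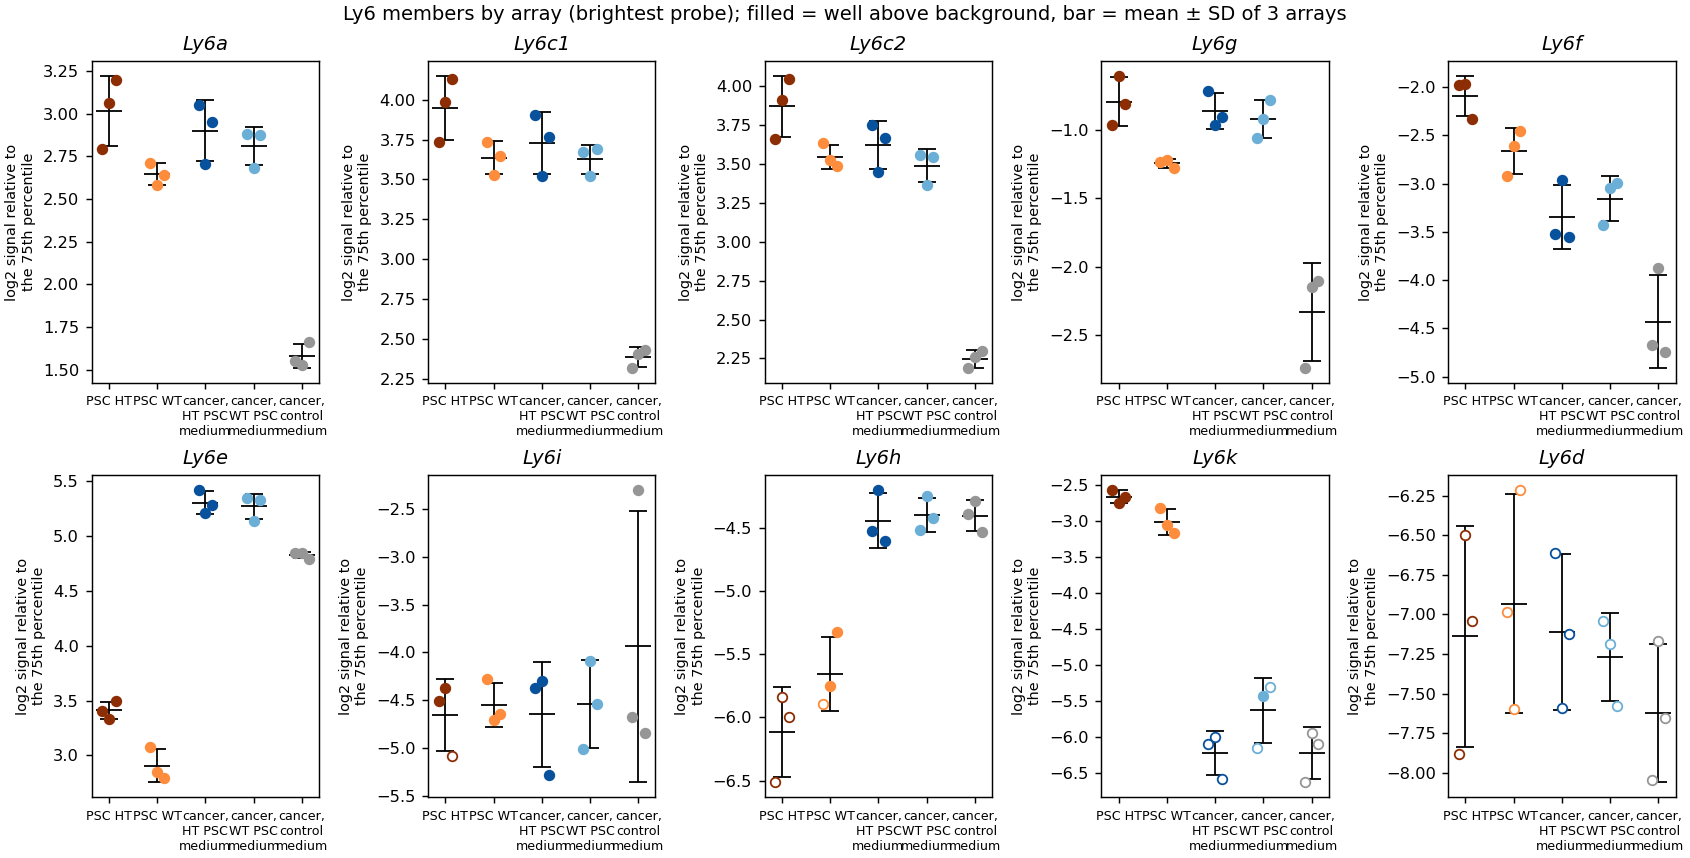
Log2 signal relative to the 75th percentile of the array (vertical axes, one scale per gene) for the brightest probe of each member in the 5 groups. Points are arrays, filled where well above background, and bars are mean ± SD of 3 arrays. For Ly6a, Ly6c1, Ly6c2, Ly6g and Ly6f all 6 cancer cell arrays in PSC medium lie above the 3 in control medium.

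In each PSC medium, 6 of the 8 members tested were higher by the adjusted p rule and 0 were lower. Of all genes tested in the cancer cells, 2.97% were called higher in HT PSC medium and 2.8% in WT PSC medium, and either way 5.47% and 5.95%. The members' groups did not overlap for 6 of 8, against 24.4% and 25.3% of all genes. The median difference of the members was 1.20 and 1.24, against 0.01 and 0.03 over all genes tested. As the family was chosen with these contrasts known, nothing is read from the excess.

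The slides were balanced over the groups only in part. Within single slides the Ly6a difference was 1.18 to 1.39 in HT PSC medium and 1.25 to 1.27 in WT PSC medium. For Ly6c1 it was 1.11 to 1.46 and 1.20 to 1.30, for Ly6c2 1.19 to 1.46 and 1.20 to 1.31, and for Ly6g 1.18 to 1.61 and 1.30 to 1.36. A test was made only for HT PSC medium within slide 1, with 2 arrays against 2, where 0 of the 6 called members stayed past the threshold. Of all 20275 genes tested there, 0 passed, so the loss is not particular to the members. In the others a group has 1 array, and the values stand without a test.

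**Figure D2:**
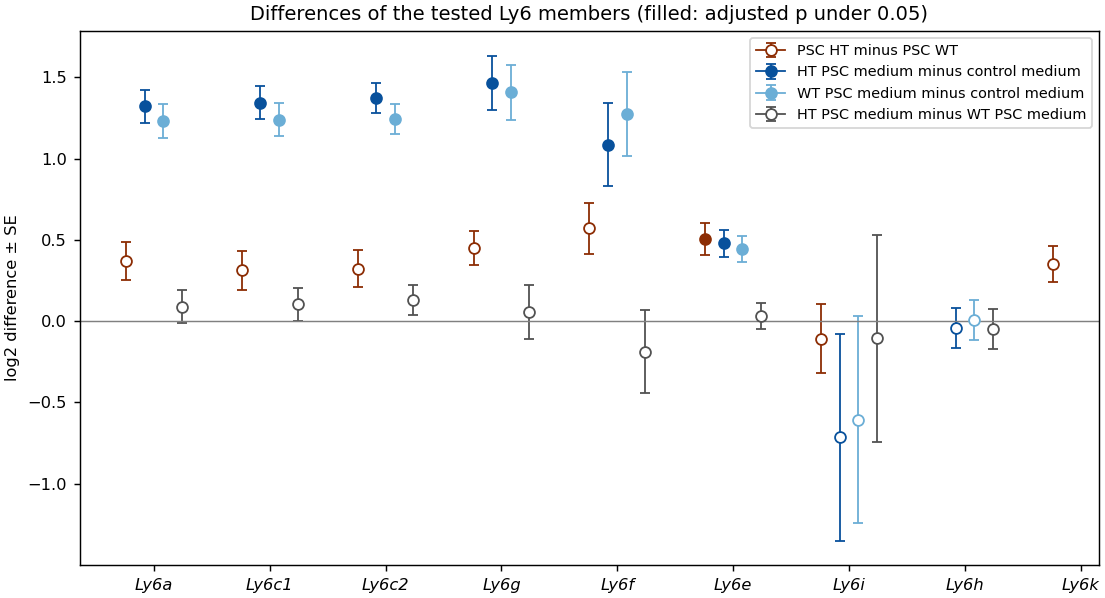
Log2 difference ± SE (vertical axis) of each tested member in 4 comparisons, filled where the adjusted p was under 0.05. In both PSC media Ly6a, Ly6c1, Ly6c2, Ly6g and Ly6f lie between 1.09 and 1.47 above control medium, Ly6e between 0.45 and 0.48.

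Whether the genotype of the PSC changed the effect of their medium was read from HT PSC medium against WT PSC medium. None of the 8 tested members passed in limma, and neither did any of the 19687 genes (0%), of which 960 had an unadjusted p under 0.05. The members' differences lay between -0.19 (Ly6f) and 0.13 (Ly6c2), and their groups overlapped in all 8 (they did not for 11.5% of all genes). The 95% intervals ran from -0.14 to 0.32 for Ly6a, from -0.13 to 0.34 for Ly6c1, from -0.08 to 0.34 for Ly6c2 and from -0.33 to 0.44 for Ly6g. These intervals hold the differences that the arrays do not exclude.

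The members with the larger differences were neighbours on the chromosome. Among the members, the 5 with differences above 1 in both media lie next to each other, from the Ly6a probe to that of Ly6f, 276.9 kb away. Ly6e lies 36.0 kb to the other side of Ly6a and Ly6i, at 15.1 kb, lies between them, with differences of 0.45 to 0.48 and of -0.71 to -0.61. Ly6h, 569.6 kb from Ly6a and beyond Ly6f, had -0.04 and 0.01.

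**Figure D3:**
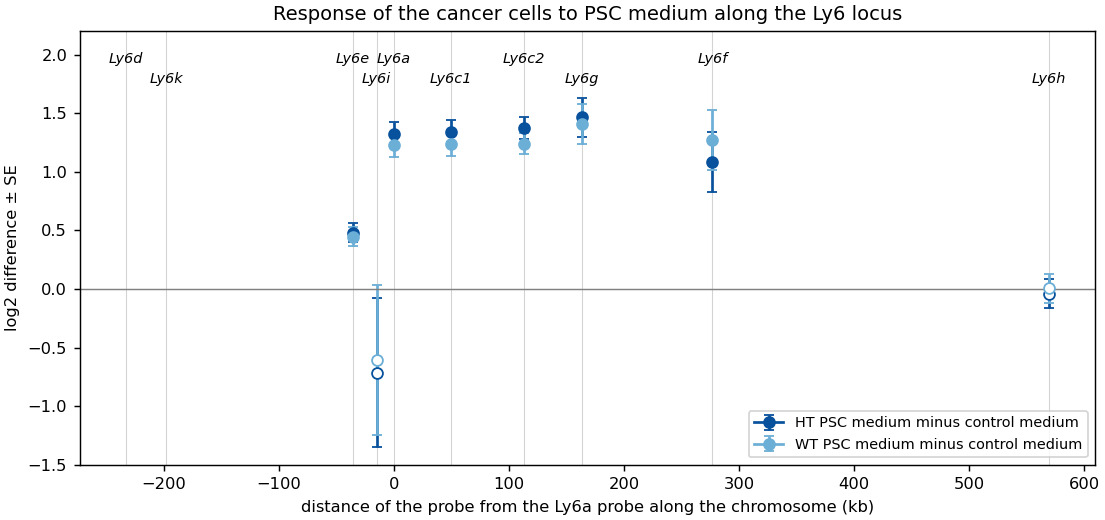
Log2 difference ± SE (vertical axis) of the tested members in the cancer cells against the distance of the probe from that of Ly6a along the chromosome in kb (horizontal axis), for both PSC media. Filled points passed the adjusted p rule. The 5 adjacent members from Ly6a at 0 to Ly6f at 276.9 kb lie at 1.09 or higher, and Ly6d and Ly6k have no point because they were not tested.

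Among genes with a symbol, Ly6a, Ly6c1, Ly6c2 and Ly6g were also nearest to each other in array pattern. The measure was the root mean square distance between 2 genes over the 15 arrays after centring each, and it was compared over 14820 genes. Names of clones, predicted genes and transcripts were left out of this ranking. The unnamed transcript that shares sequence with the Ly6g probe was therefore not ranked. The nearest gene to Ly6c1 was Ly6c2 (0.0422), then Ly6a (0.0799) and Ly6g (0.191). The nearest genes to Ly6a were Ly6c1 (0.0799), Ly6c2 (0.0997) and Ly6g (0.174), and the 3 nearest to Ly6g were Ly6a, Ly6c1 and Ly6c2 (0.174 to 0.201). The distance between Ly6c1 and Ly6c2 involves probes that may share RNA, whereas the probes of Ly6a and Ly6g have no such match among the members' probes. Matches to the members' whole transcripts were not examined.

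The other members had different neighbours in pattern. Ly6e was nearest to Pmvk, the phosphomevalonate kinase of sterol synthesis (0.143), to Ehd4 of endocytic transport (0.149) and to the fatty acid desaturase Scd1 (0.153). Ly6f was nearest to the ephrin receptor Epha6 (0.354), to Spata24 (0.358) and to Slc46a3 (0.362). Ly6h was nearest to Trim52 (0.179), Mrgbp (0.181) and Dlgap3 (0.186). Ly6k was nearest to Apod, a lipocalin (0.234), to Usp51 (0.258) and to Acta2, the smooth muscle actin of activated stellate cells (0.269).

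**Figure D4:**
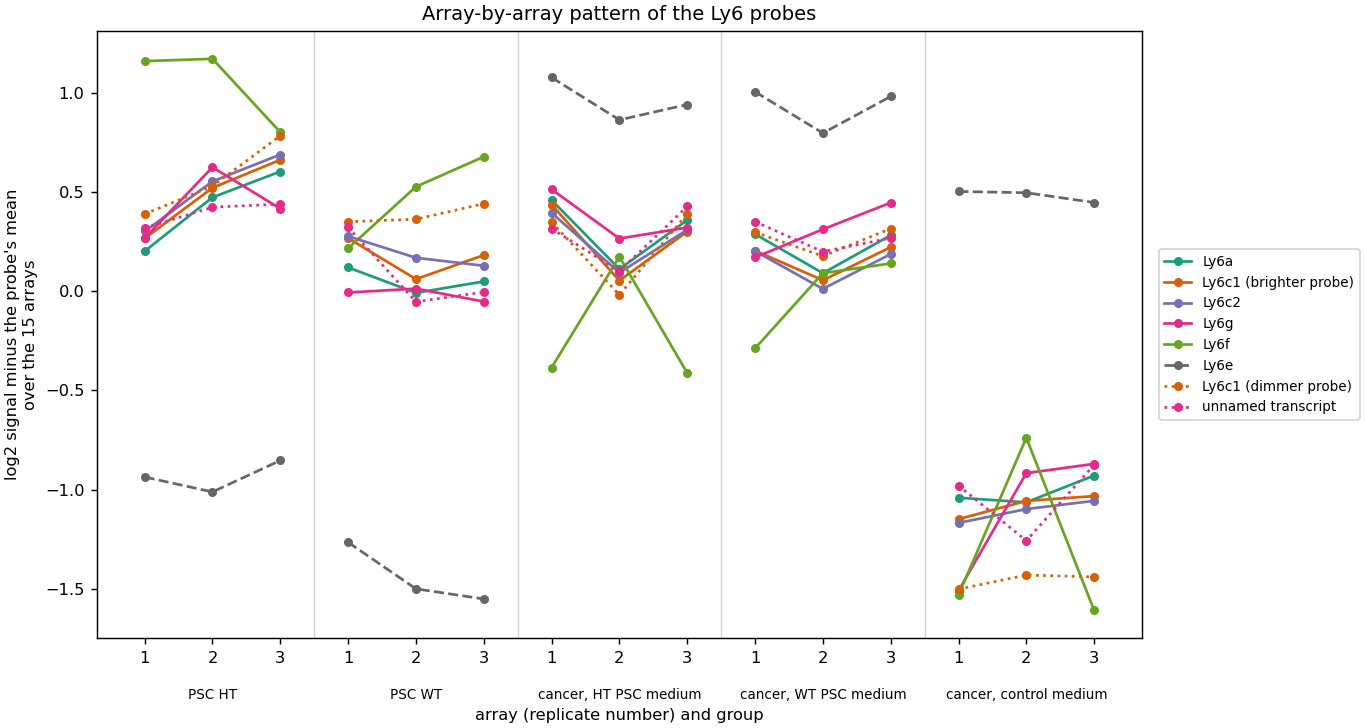
Log2 signal minus the probe's mean over the 15 arrays (vertical axis) for each array by group (horizontal axis). Lines join the arrays of a group only to guide the eye and imply no order. The probes of Ly6a, Ly6c1, Ly6c2 and Ly6g and the unnamed transcript are low on the 3 control arrays and close together elsewhere, while Ly6e is low in PSC.

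Of 21 other genes with a Ly6/uPAR domain tested, 0 were higher and 5 lower in each PSC medium, with medians of -0.10 in HT and 0.01 in WT PSC medium. Lypd6, a GPI-anchored protein known in zebrafish to promote Wnt signalling, gave -2.69, -3.04 and -2.65 in HT PSC medium and -3.02, -3.30 and -3.23 in WT PSC medium, against -1.14, -1.53 and -1.16 in control medium. All its arrays in PSC medium were below the controls, with differences of -1.51 ± 0.14 (adjusted p = 0.00119) and -1.90 ± 0.14 (adjusted p = 0.000298). Lypd8, an antibacterial protein of the gut surface, differed by -1.17 ± 0.17 and -1.08 ± 0.17, and Lypd6b by -0.51 ± 0.12 and -0.74 ± 0.12. Ly6g5c differed by -1.37 ± 0.22 and -1.18 ± 0.22, with 2 of 3 arrays in HT PSC medium well above background. Slurp1, a secreted Ly6/uPAR protein of epithelia, was well above background on none of the 6 arrays in PSC medium, against a mean of -4.82 in control medium.

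Of 27 genes tested that make and attach the GPI anchor, on which most members depend, 0 passed in either medium. Their medians were 0.07 in HT and 0.02 in WT PSC medium. Of all genes tested, 5.47% and 5.95% passed either way, so nothing is read from the 0 in a list this short.

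Of 19 interferon response genes tested in the cancer cells, 1 was higher and 1 lower in HT PSC medium, and 2 were higher and 1 lower in WT PSC medium. Bst2, an antiviral membrane protein also held by a GPI anchor, was higher by 0.42 ± 0.09 and 0.37 ± 0.09. Isg15, a ubiquitin-like modifier, was higher by 0.33 ± 0.07 in WT PSC medium and had 0.28 ± 0.07 in HT PSC medium (adjusted p = 0.0579). Oasl1, of the oligoadenylate synthetase family, was lower, at -0.64 ± 0.06 and -0.69 ± 0.06. The list's median was 0.09 and -0.02, beside 0.01 and 0.03 over all genes tested. Only these 19 of the 37 listed genes on the array were bright enough in the cancer cells to be tested. A part of interferon in the Ly6 differences was not tested.

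Of 8 squamous and basal epithelial genes, the field in which Ly6d is known, 1 was higher and 2 lower in each medium. The cornified envelope genes Ivl (-1.33 ± 0.09 in HT and -1.06 ± 0.09 in WT PSC medium) and Sprr1a (-0.70 ± 0.11 and -0.67 ± 0.11) were lower, and the basal keratin Krt14 (0.53 ± 0.09 and 0.44 ± 0.09) was higher.

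**Figure D5:**
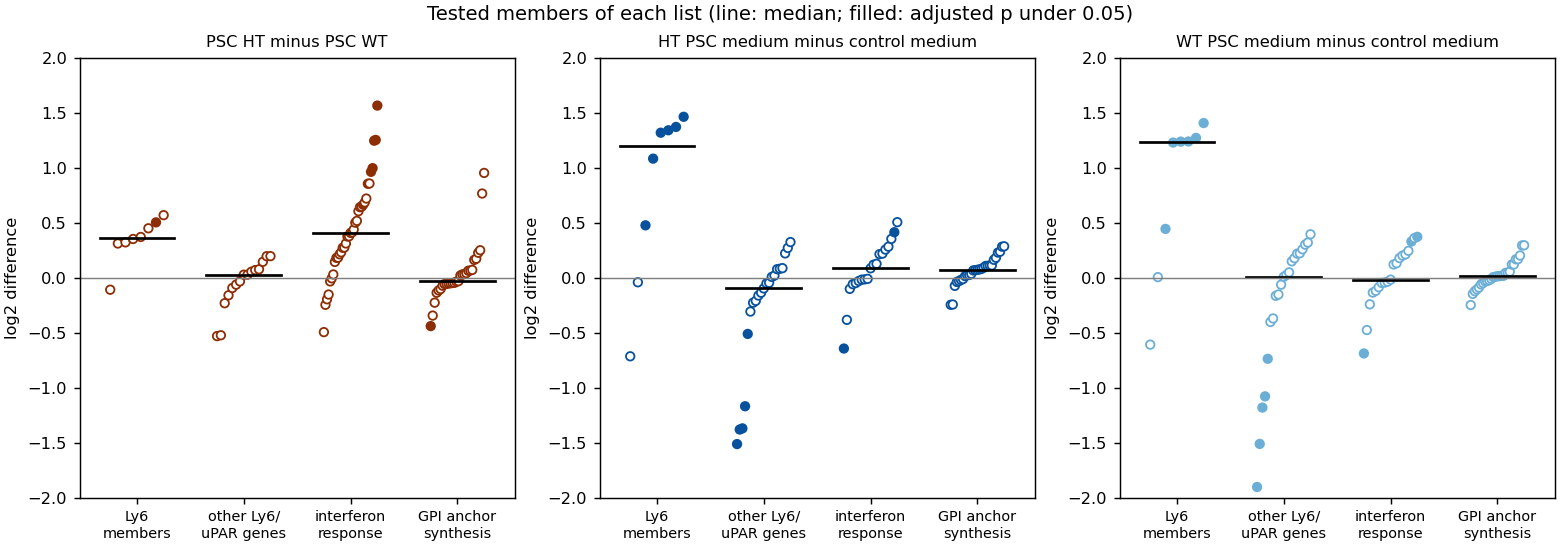
Log2 difference (vertical axes) of every tested gene of 4 lists in 3 comparisons, with the median as a line and filled points for an adjusted p under 0.05. In both PSC media the Ly6 members have medians of 1.20 and 1.24, and the other Ly6/uPAR genes of -0.10 and 0.01, with 5 lower in each.

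Since several members mark blood cells or stroma, markers of other cells were read on the same cancer cell arrays. In bulk RNA, fewer cells of a type and less RNA per cell cannot be told apart. Of the 16 monocyte and macrophage markers, 6 were well above background on each cancer cell array, and their summed level was 15.8 to 17.6 in HT PSC medium and 15.1 to 17.1 in WT PSC medium, against 14.9 to 15.7 in control medium. Cd14, a receptor for bacterial lipopolysaccharide, made up 62.8% to 74.4% of that sum. Of 6 tested in each medium, 2 were higher, Mrc1 (0.69 and 0.52) and Cd68 (0.55 and 0.52), and 0 were lower. Adgre1, another marker of the list, was well above background on none of the 9 arrays.

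Of 10 neutrophil markers 4 were tested and 1, S100a8, was higher (0.35 ± 0.07 in HT and 0.38 ± 0.07 in WT PSC medium). The summed level was 40.6 to 43.7 in HT PSC medium and 41.5 to 52.8 in WT PSC medium, against 41.6 to 62.0 in control medium. Csf3r, the receptor for granulocyte colony-stimulating factor, made up 97.3% to 98.7% of that sum on the cancer cell arrays and did not pass (-0.28 ± 0.15 in HT and -0.16 ± 0.15 in WT PSC medium). Csf3r and Elane, the neutrophil elastase gene, were well above background on all 15 arrays, and Cxcr2, Ltf and Ngp on none. The lymphocyte kinase Lck was higher as 1 of 3 lymphocyte markers tested (0.37 and 0.41). The endothelial marker Eng was higher in both media (0.34 and 0.33), and Sox17 was lower in WT PSC medium (-0.33), of 5 endothelial markers tested.

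Markers of the PSC themselves were read as well. Activated stellate cell markers summed to 139.5 to 147.1 in HT PSC medium and 130.8 to 140.2 in WT PSC medium, against 131.4 to 134.5 in control medium and 1495 to 2235 in PSC WT. Vim made up 51.7% to 57% of that sum on the cancer cell arrays, so the sum says little about the other markers. Of the 6 markers tested, 0 passed in HT PSC medium and 1, the matricellular gene Sparc (0.81), in WT PSC medium. Col1a1 did not pass, though without overlap. It read -4.06, -3.98 and -4.14 in HT PSC medium and -4.02, -2.85 and -4.01 in WT PSC medium, against -4.35, -4.22 and -4.72 in control medium. Of 5 markers of Sca-1 positive adventitial fibroblasts tested, 0 passed in either medium. One mesothelial marker was tested and did not pass.

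In the PSC, the question was how the genotypes differ. PSC HT were above PSC WT for 7 of the 8 members tested, by 0.31 to 0.57, and Ly6e alone passed the threshold. By the adjusted p rule 2.95% of all genes were called higher and 7.73% either way. The groups did not overlap for 6 of the 8 members, against 29.1% of all genes, and the members' median was 0.36, against 0.00 over all genes.

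Ly6e gave 3.41, 3.33 and 3.49 in PSC HT, against 3.08, 2.85 and 2.79 in PSC WT. All PSC HT arrays were higher, by 0.51 ± 0.10 (adjusted p = 0.0331). The call was lost without any one of 5 of the 6 arrays, with differences of 0.45 to 0.59 over all 6 omissions. Without PSC HT 3, the array with the higher epithelial sum, it was 0.47 (adjusted p = 0.106).

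Ly6g gave -0.97, -0.61 and -0.82 in PSC HT, against -1.24, -1.22 and -1.28 in PSC WT, without overlap (0.45 ± 0.10, adjusted p = 0.0533). Ly6f gave -1.98, -1.97 and -2.34 in PSC HT, against -2.92, -2.61 and -2.46 in PSC WT, also without overlap (0.57 ± 0.16, adjusted p = 0.0874). Ly6a gave 2.79, 3.07 and 3.20 in PSC HT, against 2.71, 2.58 and 2.64 in PSC WT (0.37 ± 0.12, adjusted p = 0.122). None of these passed.

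The brighter Ly6c1 probe gave 3.73, 3.99 and 4.13 in PSC HT, against 3.73, 3.53 and 3.65 in PSC WT, where the lowest HT array and the highest WT array met (0.31 ± 0.12, adjusted p = 0.195). The Ly6c2 probe gave 3.66, 3.91 and 4.04, against 3.63, 3.52 and 3.48 (0.32 ± 0.11, adjusted p = 0.165), and the dimmer Ly6c1 probe had 0.18 ± 0.11 (adjusted p = 0.417). Ly6k, a GPI-anchored protein that sperm need for fertilization in the mouse, gave -2.57, -2.75 and -2.67 in PSC HT, against -2.83, -3.05 and -3.17 in PSC WT (0.35 ± 0.11, adjusted p = 0.122). Ly6i had -0.11 ± 0.21 (adjusted p = 0.836), and Ly6h was well above background on 0 of 3 PSC HT and 2 of 3 PSC WT arrays.

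Markers of other cells moved with the PSC genotype. Of 14 monocyte and macrophage markers tested, 12 were higher in PSC HT and 0 lower, with a median of 2.79, and the whole list summed to 183, 72.2 and 72.8 in PSC HT, against 29.6, 16.8 and 15.6 in PSC WT. PSC HT 1, with the highest sum, had the lowest Ly6a, Ly6c1, Ly6c2 and Ly6g of the PSC HT arrays, the highest Ly6k, and Ly6e and Ly6f between those of the other arrays. Of 35 interferon response genes, 7 were higher and 0 lower (median 0.41), among them Psmb8, an inducible proteasome subunit (1.00 ± 0.10), the antiviral synthetases Oas1a (1.25 ± 0.08) and Oas2 (1.26 ± 0.15), and their relative Oas1g, which was well above background on 1 of 3 PSC WT arrays. Endothelial markers were lower for 5 of 8 and higher for 0, and mesothelial markers lower for 6 of 7. The endothelial list summed to 7.59 to 8.57 in PSC HT, against 8.99 to 9.35 in PSC WT, and the mesothelial list to 10.73 to 17.47, against 39.7 to 49.5. The part of these cells in the Ly6 values of the PSC was not tested.

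In lists closer to the family, 0 of 15 other Ly6/uPAR genes passed (median 0.03), and of 28 GPI anchor genes 1, Pgap2, was lower (-0.44). Of all genes tested, 7.73% passed either way, so with lists this short nothing is read from these counts. Of 8 adventitial fibroblast markers 2 were higher, Col14a1 (0.98) and Pi16 (0.90), and 2 lower, Cd34 (-1.34) and Sema3c (-1.60).

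Lastly, PSC WT were set against the cancer cells in control medium to place the members by cell type. Of 9 members tested, 6 were higher and 2 lower in PSC WT, where 36.1% and 35.2% of all genes were called higher and lower, so a call in this comparison is common (71.4%). The groups did not overlap for 8 of 9, against 75.6% of all genes. Ly6k was well above background on all 6 PSC arrays and on 1 of 9 cancer cell arrays. At means of -3.02 and -6.23, PSC WT exceeded control cancer cells at least 5.80-fold, the bound set by the lowest signal that counts as above background. The bound itself was not tested. The limma difference, which uses the dim readings as they are, was 3.21 ± 0.20 (adjusted p = 1.05e-05). Ly6f (1.77 ± 0.25), Ly6c2 (1.30 ± 0.09), Ly6c1 (1.25 ± 0.09), Ly6g (1.08 ± 0.18) and Ly6a (1.07 ± 0.09) were also higher in PSC WT. Ly6e was lower in PSC WT (-1.92 ± 0.10), as was Ly6h (-1.25 ± 0.16), with 2 of 3 PSC WT arrays well above background for the brightest Ly6h probe. Apart from leaving out arrays, the Ly6h call held in 6 of 8 settings, and normexp correction was among those where it was lost. The other Ly6h probes were well above background on no array. Ly6i had -0.61 ± 0.66 and did not pass.

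The order of the group means shows where the cancer cells in PSC medium stood. For Ly6a the order was PSC HT, cancer cells in HT PSC medium, cancer cells in WT PSC medium, PSC WT and, apart from these, cancer cells in control medium, at means of 3.02, 2.90, 2.81, 2.65 and 1.58. Each of the first 4 overlapped its neighbour, and only the controls were separate. The same held for Ly6c1 and Ly6c2, whose controls averaged 2.39 and 2.25 while the other 4 groups averaged 3.63 to 3.95 and 3.49 to 3.87. For Ly6g, PSC HT and both PSC media overlapped (-0.80 to -0.92), PSC WT came next without overlap (-1.25), and control medium was lowest (-2.33).

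Ly6f and Ly6e had other orders. For Ly6f, PSC HT (-2.09) and PSC WT (-2.66) stood above WT PSC medium (-3.16) and HT PSC medium (-3.35), which overlapped, and above control medium (-4.43). For Ly6e, HT PSC medium (5.31) and WT PSC medium (5.27) overlapped and stood above control medium (4.83), followed by PSC HT (3.41) and PSC WT (2.91), each without overlap.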

How the data were processed

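The deposited scanner files hold 1-colour Cy3 intensity values that the authors extracted, per the file headers, in version 10.7.3.1 of Agilent's Feature Extraction, with background subtraction and detrending inside an array and no scaling across arrays. The log2 values of the authors' deposited series matrix, made in a way not given in the sources used here, were tried in place of the scanner values inside each cell type. From the processed signal, log2 values were formed relative to the 75th percentile of the array (913 to 1449 units). Spots marked as outliers were left out and the 300 probes spotted 10 times averaged. RefSeq tables updated gene names only.

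Each gene was read from its brightest probe on average, and tested where all 3 arrays of at least 1 fitted group had it well above background. Differences were fitted with limma 3.58.1 (R 4.3.3), in 1 fit for PSC, 1 for cancer cells and 1 for cell types, with Benjamini-Hochberg adjustment over all genes and a threshold of 0.05. "At least N-fold" sets a group against whichever was higher on each dim array, its reading or its floor. Python 3.11.15, numpy 2.4.6, pandas 2.3.3, data.table (1.17.8) and matplotlib 3.10.9 were also used. The procedure was tested on simulated data with independent noise and no slide effects, which does not test the differences given here. Precision is limited by 3 arrays per group. Deviations from group means correlated between same-numbered arrays at 0.21 to 0.25 for WT PSC medium and control, over 0.1 in all 3 pairs, but at -0.14 to 0.38 for HT PSC medium and control, -0.25 to 0.25 between the media, -0.11 to 0.20 for PSC and -0.12 to -0.078 for cell types. Differently numbered arrays of WT PSC medium and control reached 0.22, with 3 of 6 pairs over 0.1. These correlations therefore do not show that the numbers pair the samples in any comparison.

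The members and gene lists were chosen with earlier results of these data known. All 10 members are named, with up to 4 genes per list by smallest p among those past the threshold. The 3 genes nearest in pattern are also named, taken from genes whose symbol is not a clone, predicted or transcript name. Markers of other cells named beside a result, and the genes of short counts, were chosen after their values were seen. Alternatives changed background correction (normexp, offset 50), scaling, filter, probe choice, blocks, variance model and arrays in the fit.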

Additional observations from a re-analysis of the deposited data

How the results depend on the processing

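Beside the values as reported, 1 of 8 members passed for PSC HT against PSC WT, and 0 did without the filter on dim probes and with the replicate block, 2 with slide as a block or on the series matrix values, and 3 with a variance trend and robust variances. Of all genes, 1.08%, 5.51%, 6.94%, 8.96% and 10.6% passed in these settings, in that order. Leaving out 1 array gave 0 to 2, beside 2.61% to 5.99% of all genes. In HT PSC medium 6 of 8 passed, and 0 within slide 1, where 0 of 20275 genes passed. The other comparisons within a slide have a group of 1 array and were not tested. Apart from slides and omitted arrays, 9 other settings gave 4 to 6 of 8 in each PSC medium. In them 0.903% to 6.79% of all genes passed in HT and 1.26% to 7.59% in WT PSC medium. Ly6f kept its call in 5 of these 9 settings in HT PSC medium and in 8 of 9 in WT PSC medium. Leaving out 1 array gave 4 to 6 in each PSC medium, 8 for the cell types and 0 between the media. The shares of all genes were then 2.5% to 4.31% in HT and 2.9% to 4.96% in WT PSC medium. They were 64.3% to 69.1% for the cell types and at most 0.0304% between the media. The 4 members Ly6a, Ly6c1, Ly6c2 and Ly6g kept their calls in both PSC media in every setting tested other than within slide 1 for HT PSC medium. Ly6e in PSC medium lost its call without the filter (adjusted p = 0.0699 and 0.0742). The cause was not tested. The replicate block left 6 of 8 called in each PSC medium and 8 of 9 for the cell types. With it, 4.04% of all genes passed in HT PSC medium, 4.91% in WT PSC medium and 65.5% for the cell types.

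Some differences that had not passed changed sign. Between HT and WT PSC medium within slide 2, Ly6a had -0.075, Ly6c1 -0.085, Ly6c2 -0.0059, Ly6e -0.026, Ly6g -0.11, Ly6f 0.058, Ly6h 0.14 and Ly6i 0.011. In the same comparison Ly6i had 0.18 within slide 1, Ly6f, Ly6h and Ly6i had 0.012, 0.034 and 0.30 with slide as a block, and Ly6h 0.11 as the mean of its probes. Leaving out 1 array there gave -0.033 to 0.081 for Ly6e, -0.016 to 0.13 for Ly6g, -0.34 to 0.21 for Ly6i and -0.17 to 0.034 for Ly6h.

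In HT PSC medium against control, Ly6h had 0.024 after quantile normalization, 0.22 as the mean of its probes, 0.023 on series matrix values, 0.090 within slide 2 and -0.16 to 0.041 without 1 array. In WT PSC medium it had -0.073 with slide as a block, -0.057 and -0.047 within slides 1 and 2, and -0.067 to 0.068 without 1 array. Leaving out 1 array gave Ly6i -1.16 to 0.11 in HT and -1.06 to 0.21 in WT PSC medium, -1.06 to 0.21 for PSC WT against control cancer cells and -0.25 to 0.11 for PSC HT against PSC WT. Ly6i also had 0.47 within slide 1 and -2.38 within slide 2 for the cell types, and between PSC genotypes 0.068 with normexp, 0.028 on series matrix values and 0.31 within slide 2.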
